A study of Mus musculus with 9 samples.

Results

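Collagens, laminins and the genes that assemble them into extracellular matrix were examined in cultured mouse prostate cancer cells. The genes were taken from the deposited expression table by symbol. The naming pattern of collagen chains gave 23 genes, the pattern of laminin chains gave 8, and 18 more were taken by name, among them fibronectin, tenascin C, perlecan and the crosslinking enzymes. Together they were 49 of the 12842 genes in the table. By role, 17 were classed as basement membrane genes and 8 as fibrillar collagens. The others were 9 further collagens, 6 enzymes and chaperones, 4 glycoproteins, 3 elastic fibre genes and 2 proteoglycans. A further 6 named genes (Fbn1, Eln, Emilin1, Lox, Loxl1 and Postn) were not analysed here.

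The cells were NPK cells, 1 line that was established in culture from metastases in the lungs of NPK mice. The mice carried Nkx3.1CreERT2, an inducible Cre under the promoter of the prostate gene Nkx3.1, and a YFP lineage reporter, and all 3 groups shared this background. Polyadenylated RNA was sequenced from 3 control libraries, 3 libraries of cells in which the histone methyltransferase gene Nsd2 was silenced by a short hairpin RNA (shNsd2), and 3 libraries of cells treated with what the labels number MCTP39, MCTP40 and MCTP41, here called MCTP. The putative inhibitor of NSD2 that the study names is MCTP-39. The comparisons ask how the silencing of Nsd2, or the treatment with MCTP, changes expression in these cells.

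In its silencing work the study used a lentiviral hairpin against luciferase as the control. The labels do not say whether the control libraries here carried it, or whether they received the vehicle of the compound. The titles of the MCTP libraries carry the numbers 39, 40 and 41, for replicates 1, 2 and 3, so that only replicate 1 carries the number of the named inhibitor. It is not known whether these are different compounds or only numbering. The MCTP group may therefore not be 3 replicates of 1 treatment. No dose or time was found for these cells. In the source field, the shNsd2 libraries are named after Nsd2, Nsd3 and Nsd4, although their titles all say shNsd2. Nothing says that the libraries of a group came from separate cultures, so the tests measure only the spread between these libraries. Values are the deposited log2 values and differences are log2 fold changes. Genes were tested with limma, and a gene was called where its p-value, adjusted over all genes tested, was under 0.05. A gene entered a comparison if at least 3 of its 6 libraries were above a floor of 3.78, which is the middle value among the lowest 10% in the table. Depth is unknown, since the table holds no counts.

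Epithelial cells rest on a basement membrane, a thin sheet in which a network of laminin trimers and a network of type IV collagen are joined by nidogens and by the heparan sulfate proteoglycan perlecan. The connective tissue around it is built from fibrillar collagens, long triple helices that are folded and hydroxylated in the endoplasmic reticulum and then crosslinked outside the cell by lysyl oxidases. Tumour cells make matrix of both kinds, and laminins and type IV collagen are among the proteins that invading carcinoma cells bind and cross.

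Among the 9 libraries, MCTP replicate 2 stood somewhat apart. Its correlation across genes was 0.99791 with MCTP replicate 1 and 0.99638 with MCTP replicate 3, and every other pair within a group reached at least 0.99894. Counts of matrix genes that involve MCTP are therefore also given without this library, and so are the single calls that changed without it. Calls over all genes tested rose without it too, from 4305 to 7384 for MCTP against control and from 5276 to 7781 for shNsd2 against MCTP.

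Nsd2, which the table lists under its older symbol Whsc1, measured 12.48, 12.43 and 12.42 in the control libraries, 11.56, 11.61 and 11.68 in the shNsd2 libraries, and 12.15, 12.21 and 12.07 in the MCTP libraries. The shNsd2 libraries were lowest, the MCTP libraries lay between, and no groups overlapped. Nsd2 fell with shNsd2 by 0.83 ± 0.0408 (SE, n = 3 a group; limma adjusted p = 2.26e-06), to a ratio of 0.563. With MCTP it fell by 0.30 ± 0.0537 (limma adjusted p = 0.00562), or by 0.33 without MCTP replicate 2 (limma adjusted p = 0.000272), and after correction for transcript GC content the difference was -0.09 (limma adjusted p = 0.216). An exact two-sided permutation test gave p = 0.1 for each comparison, the smallest that 3 libraries against 3 allow.

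To compare genes with each other, levels were divided by the length of the longest transcript and given as log2 per kilobase. On this scale the median of the 12513 genes with a known length was 8.03 in control cells and that of the 49 matrix genes was 7.98, but the matrix genes lay at both ends. There were 12 among the top 10% of genes and 22 in the lowest 25%. The most abundant per kilobase was Sparc, a collagen-binding glycoprotein, at 12.91, which is the 97.9th percentile. Fibronectin (Fn1) followed at 12.60 and fibulin 2 (Fbln2), a glycoprotein of basement membranes and elastic fibres, at 12.04.

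Basement membrane genes made up most of the rest of the top. Per kilobase in control cells, Col4a1 stood at 11.77, Lama5 at 11.74, Lamb1 at 11.29, Nid1 at 11.29, Lamc1 at 11.20, perlecan (Hspg2) at 10.80 and Col4a2 at 10.76. Lama5, Lamb1 and Lamc1, the chains of a widespread basement membrane laminin trimer, were thus all abundant. The beta chain Lamb3 stood at 9.50 per kilobase, while Lama3, the alpha chain it assembles with in epithelia, stood at 0.37, near the floor.

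Fibrillar collagens were lower. Col5a1 had the highest level per kilobase of the class in control cells (9.30), followed by Col3a1 (8.32), Col5a2 (6.91) and Col1a1 (5.63). Col5a3, Col11a1, Col11a2 and Col27a1 lay between 0.49 and 1.94 per kilobase, near the floor. The collagen chaperone Serpinh1 stood at 5.59 per kilobase, the 21.1th percentile.

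**Figure D1:**
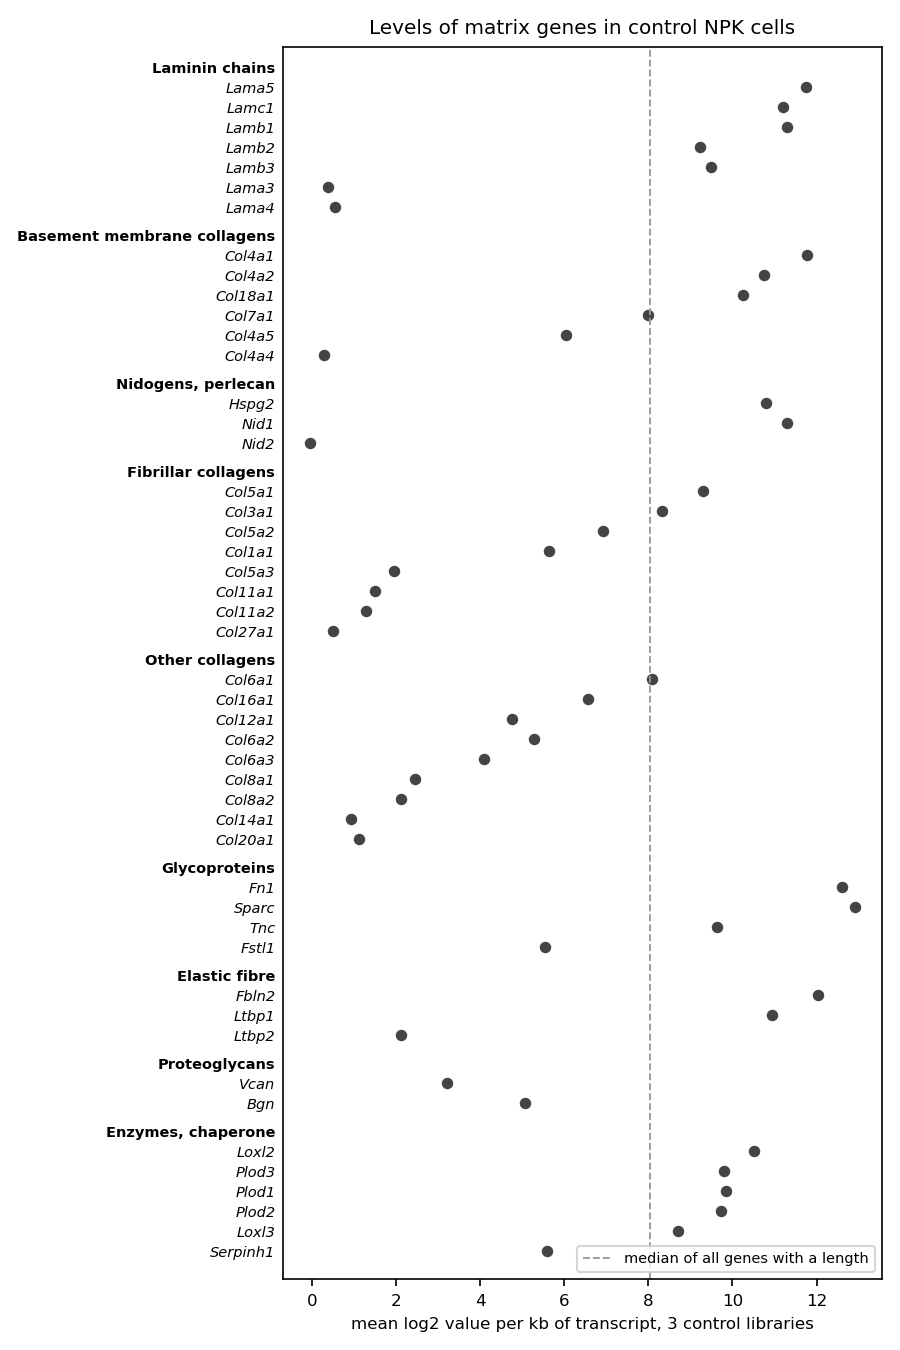
Each point is the mean log2 value per kilobase of longest transcript (x axis) of a described matrix gene (y axis, grouped by role) over the 3 control libraries, and the dashed line is the median of all genes with a known length, 8.03. Sparc (12.91) and Fn1 (12.60) are highest, abundant laminin and type IV collagen chains lie near 11, and Lama3 (0.37), Nid2 (-0.06) and several collagens lie near the floor.

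With shNsd2, most of the matrix genes fell. Of 42 that could be tested, 32 were lower (76.2%, against 24.8% of all 12205 genes tested) and 2 were higher (4.76%, against 23.1% of all genes). Their median log2 fold change was -0.25, and that of all genes tested was 0.002. The larger falls were also frequent, with 11 of the 42 (26.2%) lower by at least 0.4, against 520 of all genes tested (4.26%). The 32 include Col11a2, which was above the floor in the control libraries and in no shNsd2 library, so that it entered only through the group where it was higher. Without it 31 of 41 were lower (75.6%). Calls of 31 of the 34 genes (30 of 33 without Col11a2) held when any 1 of the 6 libraries was left out. The calls that ended were those of Hspg2, Ltbp2 and Col18a1, and the number of higher genes was then 1 in place of 2 without control replicate 1, 2 or 3 or shNsd2 replicate 1 or 2.

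Both classes moved down with shNsd2. Of 13 basement membrane genes tested, 11 were lower and 1, Col18a1, was higher, with a median of -0.35. Of 7 fibrillar collagens, 6 were lower and 1, Col5a3, was higher, with a median of -0.22, and without Col11a2 there were 5 lower and 1 higher of 6. The call of Col18a1 ended without control replicate 1, 2 or 3 or shNsd2 replicate 1 or 2 (limma adjusted p between 0.0659 and 0.165), which leaves 0 higher basement membrane genes. With the GC correction neither Col18a1 (limma adjusted p = 0.351) nor Col5a3 (limma adjusted p = 0.113) passed. In bulk RNA, fewer cells of a type and less RNA per cell cannot be told apart.

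With MCTP, which was compared with the same control libraries, the matrix genes split. Of 43 tested, 14 were lower (32.6%, against 17.2% of all 12216 genes) and 5 were higher (11.6%, against 18.0% of all genes). The median was -0.095 beside -0.006 for all genes tested, and it was 0.017 with a correction for transcript length, where 9 were lower and 7 higher, and -0.15 with a correction for GC content, where 21 were lower and 5 higher. Calls over all genes tested also rose with the GC correction, from 4305 of 12216 to 5660 of 11940, and with the length correction they were 4394 of 11940. Of 14 basement membrane genes, 6 were lower and 0 were higher, with a median of -0.12. With the length correction 4 were lower and 1, Lama3 near the floor, was higher (median -0.033). With the GC correction 10 were lower and 0 higher (median -0.19). Of 7 fibrillar collagens, 2 were lower and 3 were higher, with a median of -0.049. That median was -0.021 without control replicate 3, -0.015 with centring on medians, -0.15 with the GC correction and 0.05 with the length correction. It was -0.074 with quantile normalization, and -0.0067 over 8 genes when no floor was applied. The higher genes were Col5a2, Col5a3, Col11a1, Col12a1 and Tnc.

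These MCTP counts depended on single libraries. Without MCTP replicate 2, 16 matrix genes were lower and 8 higher, with 7 basement membrane genes lower and 0 higher, and 2 fibrillar collagens lower and 3 higher. All 19 calls stayed without that library and 5 were gained, for Loxl2, Nid1, Plod2, Plod3 and Serpinh1. Without MCTP replicate 1 the counts were 10 and 2, and without MCTP replicate 3 they were 9 and 5. Without control replicate 1, 2 or 3 they were 8 and 2, 9 and 2, and 7 and 2. Calls over all 12216 genes tested rose and fell in the same settings. They numbered 4305 with all libraries and 7384 without MCTP replicate 2. Without MCTP replicate 1 or 3 they numbered 2046 and 2842, and without control replicate 1, 2 or 3 they numbered 2366, 2162 and 2456. The calls of 9 of the 19 genes held whichever library was left out. Among them Bgn, Col16a1, Col1a1, Lamb1, Lamc1 and Loxl3 were lower, and Col12a1 and Col5a2 were higher. The basement membrane count was 3 lower without control replicate 1 or 3. The fibrillar counts became 1 lower and 1 higher without any 1 of the control libraries, 1 higher without MCTP replicate 1, and 1 lower without MCTP replicate 3.

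**Figure D2:**
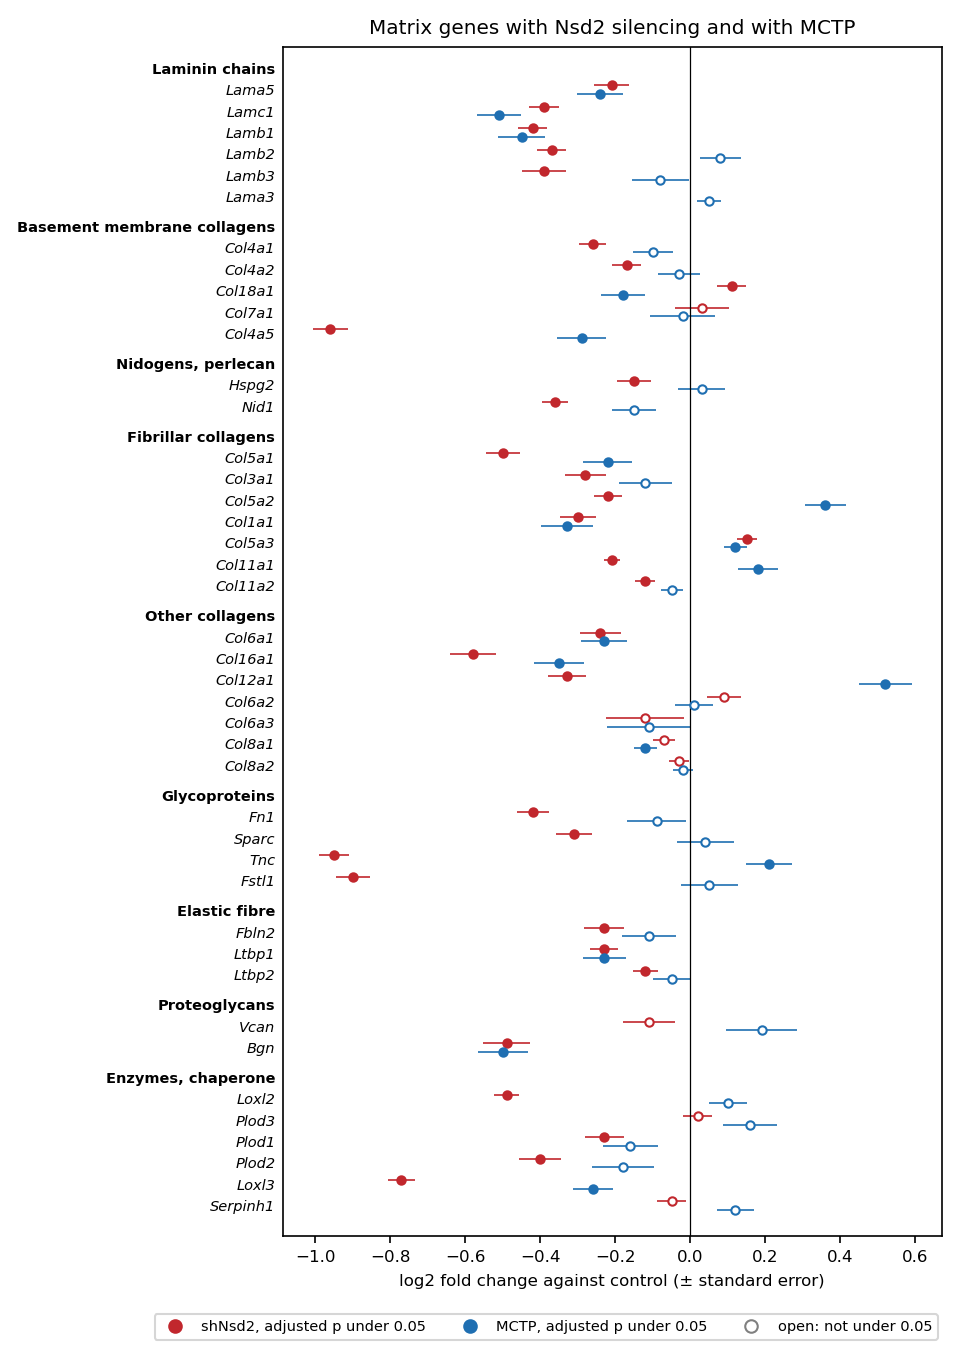
Log2 fold change against control (x axis, with standard error, 3 libraries a group) of matrix genes that could be tested (y axis, grouped by role), with shNsd2 in red and MCTP in blue, filled where the limma adjusted p was under 0.05. Most red points lie left of 0, farthest for Col4a5 (-0.96), Tnc (-0.95) and Fstl1 (-0.90), while blue points lie on both sides, from Lamc1 (-0.51) to Col12a1 (0.52), and blue calls other than 9 depend on single libraries.

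Several laminin chains fell in both treatments. Lamc1, the gamma chain of the trimer with Lama5, measured 14.07, 14.12 and 14.19 in control cells, 13.71, 13.76 and 13.74 with shNsd2, and 13.69, 13.60 and 13.56 with MCTP. Every treated library was below every control library, and the MCTP libraries were also below the shNsd2 libraries. It fell by 0.39 ± 0.0400 with shNsd2 (limma adjusted p = 9.18e-05) and by 0.51 ± 0.0587 with MCTP (limma adjusted p = 0.000874). Its partner Lamb1 measured 13.78, 13.80 and 13.89 in control cells, 13.39, 13.42 and 13.40 with shNsd2, and 13.47, 13.36 and 13.29 with MCTP. Both treated groups lay below the controls and overlapped each other. Lamb1 fell by 0.42 ± 0.0388 (limma adjusted p = 5.32e-05) and by 0.45 ± 0.0631 (limma adjusted p = 0.00204).

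Lama5, the alpha chain that joins Lamb1 and Lamc1, measured 15.23, 15.19 and 15.32 in control cells, 15.00, 15.09 and 15.03 with shNsd2, and 15.07, 14.98 and 14.97 with MCTP. The treated groups overlapped each other below the controls. The fall of Lama5 was 0.21 ± 0.0457 with shNsd2 (limma adjusted p = 0.0057) and 0.24 ± 0.061 with MCTP (limma adjusted p = 0.0206). The MCTP call of Lama5 ended without control replicate 1, 2 or 3 or MCTP replicate 3 (limma adjusted p between 0.0557 and 0.0906) and with the length correction (limma adjusted p = 0.607).

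The beta chains Lamb2 and Lamb3 fell with shNsd2 and did not pass with MCTP when all libraries were used uncorrected. Lamb2, an alternative partner of Lamc1, measured 11.72, 11.67 and 11.76 in control cells, 11.30, 11.38 and 11.34 with shNsd2, and 11.83, 11.72 and 11.84 with MCTP. Only the shNsd2 libraries stood below the controls, which the MCTP libraries overlapped. It fell by 0.37 ± 0.0383 with shNsd2 (limma adjusted p = 9.71e-05), and the difference with MCTP was 0.08 ± 0.054 (limma adjusted p = 0.269). Lamb3, a beta chain of epithelial laminin, ranged from 11.63 to 11.87 in control cells, from 11.35 to 11.40 with shNsd2 and from 11.61 to 11.76 with MCTP. It fell by 0.39 ± 0.0589 with shNsd2 (limma adjusted p = 0.000721) and differed by -0.08 ± 0.0756 with MCTP (limma adjusted p = 0.419), but with the GC correction it was called lower with MCTP too, at -0.18 (limma adjusted p = 0.0223).

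Of the type IV collagen chains, Col4a5, which forms networks of its own with further alpha chains, changed most. It measured 8.79, 8.69 and 8.76 in control cells, 7.74, 7.77 and 7.84 with shNsd2, and 8.45, 8.55 and 8.38 with MCTP. Control libraries were highest, MCTP libraries lay between, and shNsd2 libraries were far lowest, with no overlap. Col4a5 fell by 0.96 ± 0.0472 with shNsd2 (limma adjusted p = 2.26e-06), to a ratio of 0.514. It fell by 0.29 ± 0.0642 with MCTP (limma adjusted p = 0.0131), a call that ended without control replicate 1 or 3 or MCTP replicate 1 (limma adjusted p between 0.0532 and 0.06).

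The main chains Col4a1 and Col4a2 changed less. Col4a1 measured 14.49, 14.47 and 14.53 in control cells, 14.24, 14.26 and 14.20 with shNsd2, and 14.44, 14.34 and 14.40 with MCTP. Levels were lowest with shNsd2, and the groups did not overlap. Col4a1 fell by 0.26 ± 0.0364 with shNsd2 (limma adjusted p = 0.000494), and the difference with MCTP was -0.10 ± 0.0538 (limma adjusted p = 0.177; limma adjusted p = 0.00731 with the GC correction). Col4a2 measured 13.41, 13.45 and 13.49 in control cells, 13.32, 13.31 and 13.23 with shNsd2, and 13.47, 13.33 and 13.45 with MCTP. Only the shNsd2 libraries stood clear of the controls. Its fall was 0.17 ± 0.0391 (limma adjusted p = 0.00754; limma adjusted p = 0.0628 with the length correction), and the difference with MCTP was -0.03 ± 0.0568 (limma adjusted p = 0.667; limma adjusted p = 0.0141 with the GC correction, at -0.14). The annotated spans of both genes overlap by 22 bases, and since it is not stated whether reads were counted by strand, reads from that stretch may be shared. Col18a1, the precursor of endostatin, ranged from 12.71 to 12.77 in control cells, from 12.80 to 12.89 with shNsd2 and from 12.49 to 12.66 with MCTP. Its MCTP difference of -0.18 ± 0.0582 (limma adjusted p = 0.0491) passed narrowly and lost its call without control replicate 1, 2 or 3 or MCTP replicate 1 or 3 (limma adjusted p between 0.0518 and 0.152). Col7a1, which forms the anchoring fibrils beneath epithelia, ranged from 11.02 to 11.32 over all 9 libraries and passed in no comparison.

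The linkers of the basement membrane also fell with shNsd2. Nidogen 1 (Nid1) measured 13.93, 13.86 and 13.90 in control cells, 13.51, 13.54 and 13.55 with shNsd2, and 13.78, 13.80 and 13.66 with MCTP. Each MCTP library lay between the controls above and the shNsd2 libraries below. It fell by 0.36 ± 0.035 with shNsd2 (limma adjusted p = 7.13e-05), and the difference with MCTP was -0.15 ± 0.0576 (limma adjusted p = 0.0806), which passed without MCTP replicate 2 (-0.17; limma adjusted p = 0.0189), with the GC correction (limma adjusted p = 0.0275) and in a single fit of all 9 libraries (limma adjusted p = 0.0287). Perlecan (Hspg2) measured 14.59, 14.59 and 14.71 in control cells, 14.45, 14.54 and 14.46 with shNsd2, and 14.73, 14.61 and 14.64 with MCTP. The shNsd2 libraries lay just below the controls, which the MCTP libraries overlapped. The fall with shNsd2 was 0.15 ± 0.0462 (limma adjusted p = 0.0262), a call that ended without control replicate 3 or shNsd2 replicate 1 or 3 (limma adjusted p between 0.063 and 0.0995) and with the length correction (limma adjusted p = 0.171).

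Among the fibrillar collagens, the chains of type V collagen, which nucleates fibrils and sets their width, came apart. Col5a1 measured 12.31, 12.33 and 12.47 in control cells, 11.90, 11.86 and 11.85 with shNsd2, and 12.24, 12.09 and 12.11 with MCTP. Levels were lowest with shNsd2 and intermediate with MCTP, without overlap. Col5a1 fell by 0.50 ± 0.0455 with shNsd2 (limma adjusted p = 5.02e-05) and by 0.22 ± 0.0656 with MCTP (limma adjusted p = 0.0339), the second call ending without control replicate 1, 2 or 3 or MCTP replicate 3 (limma adjusted p between 0.0621 and 0.119) and with the length correction (limma adjusted p = 0.539). Its partner Col5a2 measured 9.63, 9.63 and 9.67 in control cells, 9.41, 9.45 and 9.41 with shNsd2, and 10.08, 9.99 and 9.95 with MCTP. Here the MCTP libraries were highest and the shNsd2 libraries lowest. Col5a2 fell by 0.22 ± 0.0378 with shNsd2 (limma adjusted p = 0.00166) and rose by 0.36 ± 0.0548 with MCTP (limma adjusted p = 0.00279). The remaining type V chain, Col5a3, stayed between 4.51 and 4.72 in all 9 libraries, near the floor, and its MCTP call ended without control replicate 1, 2 or 3 or MCTP replicate 1 (limma adjusted p between 0.052 and 0.085).

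Col3a1, the chain of type III collagen, measured 10.90, 10.67 and 10.83 in control cells, 10.53, 10.51 and 10.51 with shNsd2, and 10.75, 10.68 and 10.60 with MCTP. The shNsd2 libraries lay below both other groups, which overlapped. It fell by 0.28 ± 0.0544 with shNsd2 (limma adjusted p = 0.0028), and the difference with MCTP was -0.12 ± 0.0714 (limma adjusted p = 0.209). Col1a1, a chain of type I collagen, ranged from 8.12 to 8.25 in control cells, from 7.88 to 7.95 with shNsd2 and from 7.76 to 7.94 with MCTP. It fell by 0.30 ± 0.0478 with shNsd2 (limma adjusted p = 0.00111) and by 0.33 ± 0.0694 with MCTP (limma adjusted p = 0.0105). Col11a1 and Col11a2, chains of cartilage-type fibrils, lay between 3.73 and 4.75 in all libraries, where changes on this scale are small. The MCTP call of Col11a1 ended without control replicate 1, 2 or 3 or MCTP replicate 1 (limma adjusted p between 0.0558 and 0.0963), with quantile normalization and without a trend (limma adjusted p = 0.0592 and 0.0655). Col11a2 lay at 3.73 to 3.75 in the shNsd2 libraries, under the floor of 3.78, and nothing is read from its calls.

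**Figure D3:**
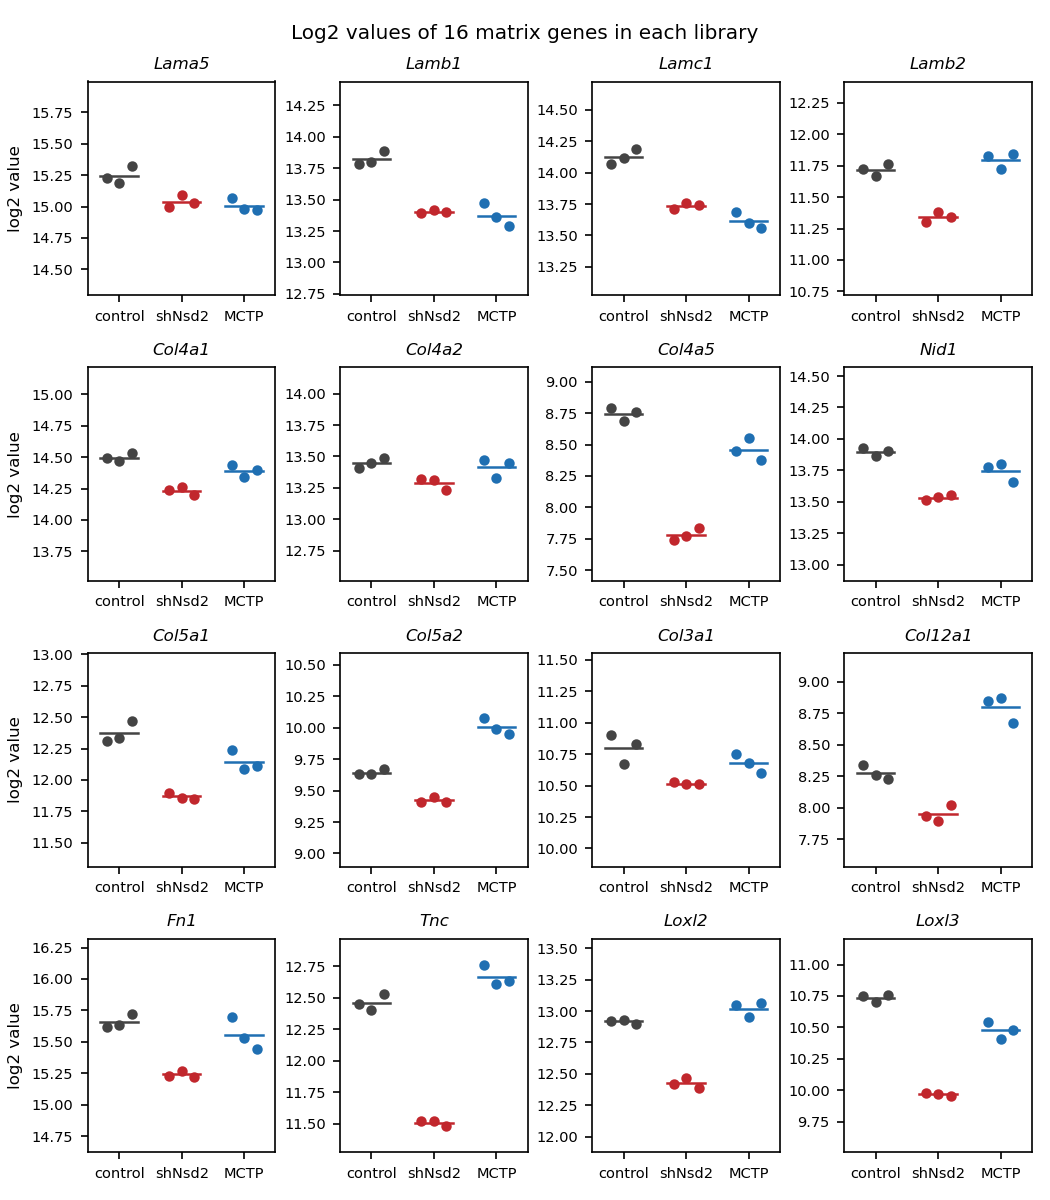
Deposited log2 values (y axis, the same span in every panel) of 16 matrix genes in the 3 control, 3 shNsd2 and 3 MCTP libraries, with a point for each library and a line at each group mean. Lama5, Lamb1 and Lamc1 are low in both treated groups, Tnc and Loxl3 are lowest with shNsd2, and Col5a2 and Col12a1 are highest with MCTP.

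Further collagens followed no single pattern. Col16a1, a collagen that associates with fibril surfaces, measured 9.01, 8.86 and 8.98 in control cells, 8.41, 8.45 and 8.26 with shNsd2, and 8.70, 8.56 and 8.55 with MCTP. The shNsd2 libraries were lowest, the MCTP libraries lay between, and no groups overlapped. Col16a1 fell by 0.58 ± 0.0613 (limma adjusted p = 0.000112) and by 0.35 ± 0.0678 (limma adjusted p = 0.00746). Col12a1, which also decorates fibrils, measured 8.34, 8.26 and 8.23 in control cells, 7.93, 7.89 and 8.02 with shNsd2, and 8.85, 8.87 and 8.67 with MCTP. Its MCTP libraries were highest and its shNsd2 libraries lowest. It fell by 0.33 ± 0.0506 with shNsd2 (limma adjusted p = 0.000771) and rose by 0.52 ± 0.071 with MCTP (limma adjusted p = 0.00192).

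Type VI collagen forms beaded filaments from several chains. Col6a1 measured 10.18, 10.05 and 10.16 in control cells, 9.96, 9.91 and 9.79 with shNsd2, and 9.94, 9.81 and 9.94 with MCTP. Both treated groups lay below the controls and overlapped each other. It fell by 0.24 ± 0.0546 with shNsd2 (limma adjusted p = 0.00629) and by 0.23 ± 0.0619 with MCTP (limma adjusted p = 0.0237), the MCTP call ending without control replicate 1 or 3 or MCTP replicate 1 (limma adjusted p between 0.0661 and 0.0894). Col6a2 ranged from 7.45 to 7.64 and Col6a3 from 7.15 to 7.61, and neither passed in any comparison with all libraries and no correction. Without control replicate 2, Col6a3 was called lower with shNsd2, at -0.26 (limma adjusted p = 0.0108). Col8a2 stayed between 4.17 and 4.25 and of all settings run passed only with the GC correction, at -0.10 with shNsd2 (limma adjusted p = 0.0301). Col8a1 ranged from 4.65 to 4.80 and passed with MCTP at -0.12 ± 0.0306 (limma adjusted p = 0.0212), a call that ended without control replicate 1, 2 or 3 or MCTP replicate 1 or 3 (limma adjusted p between 0.0612 and 0.0825), and of the settings run it passed with shNsd2 only without shNsd2 replicate 2 (limma adjusted p = 0.0442).

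Among the 49 genes, the glycoproteins included the largest contrasts between the treatments. Tenascin C (Tnc), which modulates cell adhesion and is abundant in tumour stroma, measured 12.45, 12.40 and 12.53 in control cells, 11.52, 11.52 and 11.48 with shNsd2, and 12.76, 12.61 and 12.63 with MCTP. The shNsd2 libraries were lowest and the MCTP libraries highest, with no overlap. Tnc fell by 0.95 ± 0.0404 with shNsd2 (limma adjusted p = 9.94e-07), to a ratio of 0.518. It rose by 0.21 ± 0.0608 with MCTP (limma adjusted p = 0.0318), a call that ended without control replicate 1, 2 or 3 or MCTP replicate 1 (limma adjusted p between 0.0534 and 0.127). Fstl1, a secreted relative of Sparc, measured 7.43, 7.41 and 7.51 in control cells, 6.60, 6.53 and 6.50 with shNsd2, and 7.61, 7.54 and 7.34 with MCTP. Only the shNsd2 libraries stood apart. Fstl1 fell by 0.90 ± 0.0448 with shNsd2 (limma adjusted p = 2.28e-06), and the difference with MCTP was 0.05 ± 0.0759 (limma adjusted p = 0.629).

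Fibronectin (Fn1), which links matrix to integrins, measured 15.62, 15.63 and 15.72 in control cells, 15.23, 15.27 and 15.22 with shNsd2, and 15.70, 15.53 and 15.44 with MCTP. The shNsd2 libraries lay below both other groups, which overlapped. It fell by 0.42 ± 0.0426 with shNsd2 (limma adjusted p = 9.41e-05), and the difference with MCTP was -0.09 ± 0.0791 (limma adjusted p = 0.366), which passed with quantile normalization (-0.30; limma adjusted p = 0.0123). Sparc measured 14.01, 14.16 and 14.18 in control cells, 13.82, 13.81 and 13.78 with shNsd2, and 14.20, 14.03 and 14.24 with MCTP. It too was low in the shNsd2 libraries alone. Sparc fell by 0.31 ± 0.0474 with shNsd2 (limma adjusted p = 0.000831), and the difference with MCTP was 0.04 ± 0.0752 (limma adjusted p = 0.657).

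Of the elastic fibre genes, Fbln2 measured 14.18, 14.33 and 14.39 in control cells, 14.04, 14.11 and 14.07 with shNsd2, and 14.27, 14.11 and 14.18 with MCTP. Its shNsd2 libraries lay below the controls and the MCTP libraries overlapped them. Fbln2 fell by 0.23 ± 0.0533 with shNsd2 (limma adjusted p = 0.00759), and the difference with MCTP was -0.11 ± 0.0717 (limma adjusted p = 0.252; limma adjusted p = 0.0103 with the GC correction, at -0.21). Ltbp1, which tethers latent TGF-beta to microfibrils, measured 13.64, 13.70 and 13.74 in control cells, 13.44, 13.47 and 13.47 with shNsd2, and 13.53, 13.45 and 13.39 with MCTP. Both treated groups were below the controls. It fell by 0.23 ± 0.037 with shNsd2 (limma adjusted p = 0.000959) and by 0.23 ± 0.0573 with MCTP (limma adjusted p = 0.0183), the MCTP call ending without control replicate 2 or 3 or MCTP replicate 3 (limma adjusted p between 0.05 and 0.0788) and with the length correction (limma adjusted p = 0.175). Ltbp2 ranged from 4.70 to 4.90, and its shNsd2 difference of -0.12 (limma adjusted p = 0.0193) was not called without control replicate 2 or shNsd2 replicate 1 or 3 (limma adjusted p between 0.0507 and 0.0651).

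The proteoglycan biglycan (Bgn), which binds collagen fibrils, measured 6.18, 6.36 and 6.44 in control cells, 5.81, 5.82 and 5.89 with shNsd2, and 5.82, 5.85 and 5.80 with MCTP. Both treated groups lay at one level below the controls. Bgn fell by 0.49 ± 0.0629 with shNsd2 (limma adjusted p = 0.000333) and by 0.50 ± 0.0667 with MCTP (limma adjusted p = 0.00161). Versican (Vcan), a large proteoglycan that binds hyaluronan, measured 6.99, 6.76 and 6.77 in control cells, 6.77, 6.62 and 6.79 with shNsd2, and 7.01, 7.20 and 6.88 with MCTP. The treated groups each overlapped the controls but not each other, and neither passed against them. With the GC or the length correction Vcan was called higher with MCTP, at 0.34 (limma adjusted p = 0.000932) and 0.38 (limma adjusted p = 0.00152).

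Enzymes that modify collagen were divided. Loxl2, a lysyl oxidase that crosslinks type IV collagen, measured 12.92, 12.93 and 12.90 in control cells, 12.42, 12.47 and 12.39 with shNsd2, and 13.05, 12.95 and 13.06 with MCTP. The shNsd2 libraries were lowest and the MCTP libraries slightly above the controls. Loxl2 fell by 0.49 ± 0.0339 with shNsd2 (limma adjusted p = 1.26e-05), and the difference with MCTP was 0.10 ± 0.0503 (limma adjusted p = 0.138), which passed without MCTP replicate 2 (0.14; limma adjusted p = 0.021) and with quantile normalization (limma adjusted p = 0.0447). Its relative Loxl3 measured 10.75, 10.70 and 10.76 in control cells, 9.98, 9.97 and 9.95 with shNsd2, and 10.54, 10.41 and 10.48 with MCTP. No groups overlapped, and the MCTP libraries lay between the others. Loxl3 fell by 0.77 ± 0.0352 with shNsd2 (limma adjusted p = 1.48e-06) and by 0.26 ± 0.054 with MCTP (limma adjusted p = 0.00981).

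The lysyl hydroxylases prepare collagen chains for crosslinking inside the cell. Plod2, which acts on the ends of fibrillar collagens, measured 11.69, 11.54 and 11.53 in control cells, 11.18, 11.11 and 11.27 with shNsd2, and 11.38, 11.57 and 11.29 with MCTP. Again the shNsd2 libraries were lowest, and the MCTP libraries overlapped the controls. It fell by 0.40 ± 0.0558 with shNsd2 (limma adjusted p = 0.000484), and the difference with MCTP was -0.18 ± 0.0824 (limma adjusted p = 0.125), or -0.26 without MCTP replicate 2 (limma adjusted p = 0.00438). Plod3, which also adds sugars to collagen, measured 11.46, 11.52 and 11.56 in control cells, 11.57, 11.54 and 11.49 with shNsd2, and 11.72, 11.52 and 11.77 with MCTP. The groups overlapped, and with all libraries and no correction Plod3 passed in no comparison. Without MCTP replicate 2 it was called higher with MCTP, at 0.23 (limma adjusted p = 0.0028), and lower in shNsd2 than in MCTP, at -0.21 (limma adjusted p = 0.00182), and with the GC correction the latter was -0.09 (limma adjusted p = 0.0436). Plod1 fell by 0.23 ± 0.0521 with shNsd2 (limma adjusted p = 0.00593) and with MCTP passed only with the GC correction among the settings run, at -0.26 (limma adjusted p = 0.00137). The collagen chaperone Serpinh1, between 6.70 and 6.93 in all libraries, passed in neither comparison with control. It did pass with MCTP without MCTP replicate 2 (0.15; limma adjusted p = 0.0276) and in a single fit of all 9 libraries (limma adjusted p = 0.0403), and with shNsd2 under the GC correction (-0.10; limma adjusted p = 0.0284).

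The direct comparison of shNsd2 with MCTP tests where the treatments differ. Of 43 matrix genes, 22 were lower in shNsd2 (51.2%, against 22.6% of all 12217 genes) and 1, Col18a1, was higher (2.33%, against 20.6% of all genes). The median difference was -0.14 beside 0.007 for all genes tested. Among basement membrane genes 7 of 14 were lower and 1 was higher, with a median of -0.13, and among fibrillar collagens 5 of 7 were lower and 0 were higher, with a median of -0.16. Of these, Lama3 and Col11a2 lay under the floor in every shNsd2 library and entered only through MCTP, where they were higher. Without them 20 of 41 matrix genes were lower (48.8%), with 6 of 13 basement membrane genes and 4 of 6 fibrillar collagens. Without MCTP replicate 2, 28 matrix genes were lower in shNsd2, as all 23 calls stayed and 6 were gained, for Col4a2, Fbln2, Ltbp2, Plod1, Plod2 and Plod3. Without MCTP replicate 1, or without shNsd2 replicate 1, 2 or 3, 14 were lower, of them 4 basement membrane genes and 3 fibrillar collagens. Without MCTP replicate 1 there were 2 higher, both basement membrane genes. Calls over all 12217 genes tested numbered 5276 with all libraries and 7781 without MCTP replicate 2. They numbered 3391 without MCTP replicate 1, and 3571, 3429 and 3420 without shNsd2 replicate 1, 2 or 3. Calls of 15 of the 23 genes (14 of 21 without Lama3 and Col11a2) held whichever library was left out.

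Among the 49 genes, the largest direct difference was that of Tnc, 1.16 ± 0.0525 lower in shNsd2 (limma adjusted p = 1.86e-05), followed by Fstl1 (0.95 ± 0.0734 lower; limma adjusted p = 0.000107) and Col12a1 (0.85 ± 0.0707 lower; limma adjusted p = 0.000141). Col4a5 was lower by 0.67 ± 0.0608 (limma adjusted p = 0.000202), Loxl2 by 0.59 ± 0.0497 (limma adjusted p = 0.000148), Col5a2 by 0.58 ± 0.0519 (limma adjusted p = 0.000192) and Loxl3 by 0.51 ± 0.0508 (limma adjusted p = 0.000326). Lamb2 was lower by 0.45 ± 0.0506 (limma adjusted p = 0.000544), Fn1 by 0.32 ± 0.0733 (limma adjusted p = 0.0108) and Lamb3 by 0.31 ± 0.0534 (limma adjusted p = 0.00326). The calls of all 10 of these genes held whichever library was left out.

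Other laminin chains gave small direct differences. Lama5 and Lamb1 differed by 0.03 each (limma adjusted p = 0.633 and 0.674) and Lamc1 by 0.12 ± 0.0511 (limma adjusted p = 0.101). With the GC correction Lamc1 was called higher in shNsd2, as was Col6a2 (limma adjusted p = 0.0241 and 0.0411). The direct calls of Col4a1, Nid1, Hspg2, Col3a1, Col11a2, Col16a1, Vcan and Serpinh1 were less firm. Each ended without shNsd2 replicate 1, 2 or 3 or MCTP replicate 1, and those of Col4a1 and Serpinh1 also without MCTP replicate 3 (limma adjusted p between 0.0511 and 0.135 over these genes and libraries). Lama3 lay at 3.67 to 3.85 in all libraries, and nothing is read from its call.

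Side by side, the results against control fell into several patterns. Lower in both treatments with no direct difference called were 8 genes, among them Lama5, Lamb1, Lamc1, Ltbp1, Col1a1, Col6a1 and Bgn. Lower in both, and lower in shNsd2 in the direct test, were 4 genes: Col4a5, Loxl3, Col5a1 and Col16a1. Lower with shNsd2 and higher with MCTP were 4: Col5a2, Col12a1, Col11a1 and Tnc, of which the MCTP calls of Col11a1 and Tnc each ended without control replicate 1, 2 or 3 or MCTP replicate 1. Lower with shNsd2, not called with MCTP, and different in the direct test were 11: Col4a1, Lamb2, Lamb3, Hspg2, Nid1, Loxl2, Col3a1, Fn1, Fstl1, Sparc and Col11a2, the last of which entered both tests only through the other group. Of the 11, Nid1 and Loxl2 passed with MCTP without MCTP replicate 2, Fn1 and Loxl2 with quantile normalization, and Col4a1, Lamb3, Nid1 and Col11a2 with the GC correction. A further 5 (Col4a2, Plod1, Plod2, Fbln2 and Ltbp2) were lower with shNsd2 with neither other test passed. Without MCTP replicate 2 all 5 were called lower in shNsd2 than in MCTP (limma adjusted p between 0.00515 and 0.0384). Col4a2 and Plod2 were so called also with the GC correction (limma adjusted p = 0.0316 and 6.92e-05), with quantile normalization (limma adjusted p = 0.0171 and 0.0394) and in a single fit of all 9 libraries (limma adjusted p = 0.0472 and 0.0341). Plod2 was so called further without MCTP replicate 3, with the length correction and with centring on medians (limma adjusted p = 0.0223, 0.035 and 0.0301). Thus whether the treatments differ for these genes depended on the libraries and the correction. The same control libraries served both comparisons.

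The members that could not be tested were Col4a4, Lama4, Nid2, Col27a1, Col14a1 and Col20a1, all near the floor, at values from 2.23 to 3.79. Lama3 could not be tested in shNsd2 against control.

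The balance between chains that assemble with each other shifted in a few cases. The values here are differences between log2 levels per kilobase. Col4a1 exceeded Col4a2, its partner in a trimer that holds more of the former, by 1.01 ± 0.0324 in control cells (SD, n = 3), 0.91 ± 0.0296 with shNsd2 and 0.94 ± 0.033 with MCTP, which is a ratio of 2.01, 1.88 and 1.92. Lamb1 and Lamc1 stayed within 0.06 to 0.18 of each other in all libraries. Lama5 exceeded Lamc1 by 0.54 ± 0.0431 in control cells, 0.73 ± 0.0235 with shNsd2 and 0.81 ± 0.0183 with MCTP, with no overlap between groups. Col6a1 exceeded Col6a2 by 2.82 ± 0.0779 in control cells, 2.49 ± 0.0658 with shNsd2 and 2.58 ± 0.0374 with MCTP, where both treated groups lay below the controls and overlapped each other.

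The balance of Lamb2 changed with MCTP. Lamb2 lay below Lamc1 by 1.97 ± 0.0488 in control cells, 1.95 ± 0.0145 with shNsd2 and 1.38 ± 0.0866 with MCTP. The shNsd2 libraries overlapped the controls and the MCTP libraries stood apart. The ratio of Col5a1 to Col5a2 per kilobase was 5.22 in control cells, 4.29 with shNsd2 and 3.48 with MCTP, so that the balance moved toward Col5a2 in both treatments without overlap. These balances were not tested beyond their spread. They use values without the GC or length correction, and the chains compared differ in both properties. Fold changes with MCTP followed both properties over all genes, and the part of this in the balances was not tested.

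Transcripts of the matrix genes were longer and richer in G and C than most. The median length of the 42 tested with shNsd2 was 5.86 kb, against 3.10 kb for all genes tested with a known length, and the median GC content was 55.1%, against 50.2%. Fold changes followed both properties with MCTP. The median was -0.19 in the 25% of genes with the lowest GC content and 0.10 in the 25% with the highest, and 0.0508 in the shortest 25% and -0.11 in the longest 25%. With shNsd2 the medians ran from -0.0515 to 0.0644 for GC content and from 0.025 to -0.0272 for length. After correction for GC content the matrix genes had a median of -0.15 with MCTP and -0.30 with shNsd2, and the MCTP count was 21 lower and 5 higher, in place of 14 and 5. The 9 calls gained were those of Col4a1, Col4a2, Col11a2, Fbln2, Lamb3, Ltbp2, Nid1 and Plod1, all lower, and Vcan, higher, and those of Col5a3 and Col8a1 were lost. After correction for length the MCTP count was 9 lower and 7 higher. Calls over all genes tested with MCTP were 4305 of 12216 uncorrected. They were 5660 of 11940 with the GC correction and 4394 of 11940 with the length correction.

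Some of these genes are neighbours in the genome (GRCm38). Col4a1 and Col4a2 lie head to head on chromosome 8 on opposite strands. On chromosome 1, Col3a1 and Col5a2 lie 24.6 kb apart on opposite strands. Col6a2 and Col6a1 lie 85.2 kb apart on chromosome 10. Col4a1 and Col4a2 both fell with shNsd2. Col3a1 and Col5a2 both fell with shNsd2 as well, while with MCTP Col5a2 rose and Col3a1 did not pass.

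Promoter sequences from RefSeq (GRCm38.p6), each 300 bases, from 250 before to 50 after a start, were found for 36 of the 49 genes, in 41 windows. The GC box GGGCGG, searched on both strands, was present in 28 of the 41 (68.3%), against 35.7% of all 32851 promoters. These promoters were not limited to genes of the expression table, and the share over its genes alone was not computed. The TATA box TATAAA was in 5 of the 41 (12.2%, against 13.6%), CCAAT in 13 (31.7%, against 37.4%) and the AP-1 sequence TGANTCA in 1 (2.44%, against 7.81%). Of the 11 genes lower by at least 0.4 with shNsd2, 7 had promoters, in 8 windows, and GGGCGG was in all 8. Some windows overlap and hold the same box, as do both windows of Tnc and those of Col4a1 and Col4a2. With the 8 overlapping windows of the 41 joined, GGGCGG was in 25 of 37 stretches (67.6%), against 34.3% of 29061 stretches over all promoters, and in all 7 stretches of the genes lower by at least 0.4. A match describes the letters of a window and shows no binding. Transcripts of the matrix genes were also richer in G and C than most, and the part of this in the matches was not tested.

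The sequences shown are the 78 bases common to the windows of Col4a1 and Col4a2, which face each other and both fell with shNsd2, and the promoters of Tnc, Col4a5 and Fstl1, which had the largest falls with shNsd2 among the matrix genes. Of 2 windows of Tnc, the one further upstream is given. Capitals mark GC, TATA and CCAAT boxes. The shared stretch covers chr8:11312777-11312854 on the plus strand, the Tnc promoter chr4:64046966-64047265 on the minus strand, the Col4a5 promoter chrX:141475169-141475468 on the plus strand and the Fstl1 promoter chr16:37776805-37777104 on the plus strand.
Col4a1 and Col4a2: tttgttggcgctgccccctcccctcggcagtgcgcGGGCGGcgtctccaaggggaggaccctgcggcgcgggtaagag
Tnc: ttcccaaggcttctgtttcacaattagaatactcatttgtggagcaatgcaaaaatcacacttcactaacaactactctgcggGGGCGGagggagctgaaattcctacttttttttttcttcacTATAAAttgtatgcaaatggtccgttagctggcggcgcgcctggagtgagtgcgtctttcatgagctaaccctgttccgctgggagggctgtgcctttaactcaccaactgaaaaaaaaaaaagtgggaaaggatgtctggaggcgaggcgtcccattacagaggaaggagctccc
Col4a5: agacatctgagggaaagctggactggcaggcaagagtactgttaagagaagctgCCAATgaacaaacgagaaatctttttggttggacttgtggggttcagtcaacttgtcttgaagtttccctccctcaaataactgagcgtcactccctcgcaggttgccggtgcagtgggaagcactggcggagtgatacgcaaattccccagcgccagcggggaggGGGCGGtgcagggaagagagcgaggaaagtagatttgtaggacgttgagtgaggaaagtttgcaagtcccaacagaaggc
Fstl1: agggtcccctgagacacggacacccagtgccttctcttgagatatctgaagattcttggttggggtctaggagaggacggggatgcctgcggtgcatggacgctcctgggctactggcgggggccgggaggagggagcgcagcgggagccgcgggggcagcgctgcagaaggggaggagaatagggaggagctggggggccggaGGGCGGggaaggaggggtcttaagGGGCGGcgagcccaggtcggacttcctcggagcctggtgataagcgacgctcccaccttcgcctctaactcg

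Genes that process collagen outside the 49 moved in part. Of 20 such genes, 10 were lower and 2 higher with shNsd2 (24.8% and 23.1% over all genes tested), with a median of -0.085, while 2 were lower and 8 higher with MCTP (17.2% and 18.0% over all genes), with a median of 0.044 (0.096 without MCTP replicate 2, and 0.023 with the GC correction). The higher count with shNsd2 was 1 without control replicate 2 or shNsd2 replicate 1 or 2, 3 without shNsd2 replicate 3, 1 with replicate blocks and 0 in a single fit of all 9 libraries. The higher count with MCTP was 5 without control replicate 1, 2 or 3 or MCTP replicate 1, and without MCTP replicate 2 there were 3 lower and 9 higher. P4ha3, a prolyl hydroxylase subunit, fell by 0.41 with shNsd2 (limma adjusted p = 9.49e-05) and rose by 0.36 with MCTP (limma adjusted p = 0.00232). P4ha1, a subunit of the same enzyme family, fell in both, by 0.41 (limma adjusted p = 0.000123) and by 0.30 (limma adjusted p = 0.00912). Leprel2, a prolyl 3-hydroxylase, fell by 0.42 with shNsd2 (limma adjusted p = 6.66e-05). The crosslinking enzyme Loxl4 rose by 0.45 with MCTP (limma adjusted p = 0.00189), as did the chaperone Fkbp10 by 0.39 (limma adjusted p = 0.00371). In the direct test 9 of the 20 were lower in shNsd2 and 0 were higher (22.6% and 20.6% over all genes tested), and 13 were lower without MCTP replicate 2.

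Other basement membrane genes gave 4 lower and 2 higher of 8 tested with shNsd2, and 0 lower and 1 higher with MCTP. The shares over all genes tested were 24.8% lower and 23.1% higher with shNsd2, and 17.2% and 18.0% with MCTP, so the higher counts here were near or below those of all genes. With shNsd2 there was 1 higher without control replicate 2 or shNsd2 replicate 1 or 2, and with MCTP there were 2 higher without MCTP replicate 2. With the GC correction 3 were lower and 1 higher with MCTP. Papilin (Papln), a basement membrane proteoglycan, fell by 0.96 with shNsd2 (limma adjusted p = 5.42e-06), and the difference with MCTP was -0.04 (limma adjusted p = 0.705). Qsox1, a sulfhydryl oxidase needed for laminin assembly, fell by 0.36 with shNsd2 (limma adjusted p = 6.20e-05). Netrin 4 (Ntn4), which disrupts laminin networks, rose by 0.26 with shNsd2 (limma adjusted p = 0.000628) and by 0.66 with MCTP (limma adjusted p = 0.000155). Of 7 other elastic fibre genes, 3 were lower and 2 higher with shNsd2, and 0 lower and 2 higher with MCTP, to be read against the same shares. With shNsd2 there was 1 higher without control replicate 1 or 2 or shNsd2 replicate 1 or 2, and with MCTP there were 4 higher without MCTP replicate 2 and 1 lower with the GC correction. Fibulin 1 (Fbln1) rose by 0.55 with shNsd2 (limma adjusted p = 5.14e-06) and by 0.22 with MCTP (limma adjusted p = 0.00127; limma adjusted p = 0.0515 with the GC correction). Efemp2, which binds lysyl oxidase and elastin, fell by 0.39 with shNsd2 (limma adjusted p = 0.000208).

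Other matricellular genes and proteoglycans varied most. Of 11 tested in each comparison with control, 7 were lower and 3 higher with shNsd2, and 3 were lower and 6 higher with MCTP. The lower counts include Sparcl1, which lay under the floor in every treated library and entered only through the control libraries, where it was higher. Without it 6 of 10 were lower with shNsd2 and 2 of 10 with MCTP. Over all genes tested, 24.8% were lower and 23.1% higher with shNsd2, to which the higher count came close, and 17.2% and 18.0% with MCTP, to which the lower count came close. Without MCTP replicate 2 the MCTP counts of the 11 were again 3 and 6. Thrombospondin 1 (Thbs1) fell by 0.89 with shNsd2 (limma adjusted p = 5.55e-06) and rose by 0.57 with MCTP (limma adjusted p = 0.00265). Ctgf fell by 0.64 with shNsd2 (limma adjusted p = 1.82e-05) and rose by 0.91 with MCTP (limma adjusted p = 5.70e-05). Thbs2 fell in both, by 0.90 (limma adjusted p = 5.82e-06) and by 0.91 (limma adjusted p = 0.000308), as did osteopontin (Spp1), by 0.82 (limma adjusted p = 3.80e-05) and by 1.05 (limma adjusted p = 0.000786). Tenascin X (Tnxb) rose in both, by 0.55 (limma adjusted p = 3.47e-05) and by 1.38 (limma adjusted p = 3.86e-05).

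Markers of cell types showed what the cultures held. Of 8 epithelial markers 7 were in the table, with summed log2 levels from 17.54 to 18.15 in the 9 libraries, while Epcam lay near the floor at 3.54 to 3.76. Krt8 had the highest mean over the 9 libraries, but in the MCTP libraries Krt19 was at or above it, at 16.60, 16.34 and 16.76 beside 16.57, 16.34 and 16.70. Single epithelial markers moved. Krt14 rose by 0.78 with shNsd2 (limma adjusted p = 2.22e-05) and by 1.19 with MCTP (limma adjusted p = 0.000274), and Cdh1 fell by 0.20 (limma adjusted p = 0.00368) and by 0.34 (limma adjusted p = 0.00325). Krt19 fell by 0.34 with shNsd2 (limma adjusted p = 0.00257) and rose by 0.37 with MCTP (limma adjusted p = 0.0392), a call that ended without control replicate 1, 2 or 3 or MCTP replicate 1 or 3 (limma adjusted p between 0.0782 and 0.13). With shNsd2, Krt7 rose by 0.22 (limma adjusted p = 0.0117; limma adjusted p = 0.0527 without shNsd2 replicate 1), and Krt8 fell by 0.21 (limma adjusted p = 0.0193; limma adjusted p between 0.0503 and 0.0747 without control replicate 2 or 3 or shNsd2 replicate 3). With MCTP, Krt8 passed without MCTP replicate 2 (0.35; limma adjusted p = 0.00182) and in a single fit of all 9 libraries (limma adjusted p = 0.0445). Their part in the matrix results was not tested. The prostate marker Hoxb13 was listed at 10.23 to 10.67. Of 6 fibroblast markers 3 were in the table, led by Cd34 at 7.02 to 7.37. Cd34 was lower with shNsd2, by 0.24 (limma adjusted p = 0.00235), and it was lower with MCTP by 0.18 (limma adjusted p = 0.0288), a call that ended without control replicate 1, 2 or 3 or MCTP replicate 1 or 3 (limma adjusted p between 0.0526 and 0.117). The others, Pdgfra (3.97 to 4.14) and Dpt (3.51 to 3.55), were near the floor. Pdgfra was higher with shNsd2, by 0.13 (limma adjusted p = 0.00161), and higher in shNsd2 than in MCTP by 0.08 (limma adjusted p = 0.0266), the second call ending without shNsd2 replicate 1 or 3 or MCTP replicate 1 or 3 (limma adjusted p between 0.0679 and 0.0939). The part of these markers in the matrix results was not tested. Of 4 endothelial markers only Cdh5 was listed, at 3.47 to 3.71. Of 5 leukocyte markers only Cd68, a lysosomal protein, was listed, at 6.50, 6.51 and 6.60 in control cells, 6.78, 6.78 and 6.72 with shNsd2, and 7.20, 7.15 and 7.44 with MCTP. Cd68 rose by 0.23 with shNsd2 (limma adjusted p = 0.00227) and by 0.73 with MCTP (limma adjusted p = 0.000688). Its part in the matrix results was not tested either.

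Of the smooth muscle markers, Acta2 rose with MCTP. Of 4, Acta2 and Cnn1 were in the table, and the summed level was 5.94 to 6.13 in control cells, 6.11 to 6.27 with shNsd2 and 8.83 to 9.17 with MCTP. Acta2, smooth muscle actin, accounted for nearly all of it, at 5.83, 6.03 and 5.98 in control cells, 6.04, 6.18 and 6.01 with shNsd2, and 8.91, 8.81 and 9.16 with MCTP. It rose by 3.02 ± 0.096 with MCTP (limma adjusted p = 7.18e-06), or by 3.09 without MCTP replicate 2 (limma adjusted p = 2.11e-08), in the same libraries where Col5a2, Col12a1 and Tnc were higher. Cnn1 stayed near the floor at 2.24 to 2.47. Whether the rise of Acta2 has a part in the matrix results was not tested.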

How the data were processed

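The authors deposited 1 table of log2 values for 12842 genes, normalized between libraries by a method the table does not name. The submitters' notes list bcl2fastq 1.8.4, TopHat, Cufflinks, DESeq and DESeq2 and the build mm9, without giving each its role for this table. The table has 12 columns of values, and 3 that match no labelled sample were not used. From these values, limma 3.58.1 (lmFit, then eBayes with a mean-variance trend) was run on the 6 libraries of each comparison, and p-values were adjusted by Benjamini-Hochberg across every gene that passed the floor. The plan named a count test for counts only, so it did not apply.

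Gene positions, lengths and GC content come from GENCODE M21 (GRCm38), matched by Ensembl identifier for 12513 genes (97.4%), and this may not be the annotation the authors used. The procedure was first run on simulated data with known changes. The alternatives fitted all genes unfiltered, 1 fit to the 9 libraries together, a block for the replicate number, each library left out, quantile normalization, centring on medians, no trend, and corrections for GC content or length by lowess with a span of 0.3.

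Values in every library are given for the 2 most abundant genes of each role and for genes past the threshold with a log2 fold change of at least 0.4, and pathway genes outside the 49 for the 3 largest changes of each list. A few genes within this rule are not described. Other genes singled out (Col1a1, Col18a1, Col8a1, Lamb3, Lama3, Plod1, Ltbp2, Serpinh1, Col6a2, Col6a3, Col8a2 and the markers) were chosen after their values were seen. The members and lists were chosen with earlier results of these data known. The counts without genes that entered through 1 group, and the joining of overlapping promoter windows, were chosen after the data were seen.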

Additional observations from a re-analysis of the deposited data

How the results depend on the processing

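With 1 library left out at a time, 30 to 33 matrix genes were lower and 1 to 2 higher with shNsd2 (median -0.28 to -0.24), with 0 to 1 basement membrane genes higher and their median -0.36 to -0.31. With MCTP 7 to 16 were lower and 2 to 8 higher, with 3 to 7 basement membrane genes lower, and 1 to 2 fibrillar collagens lower and 1 to 3 higher. In shNsd2 against MCTP 14 to 28 were lower and 1 to 2 higher, with 4 to 8 basement membrane genes lower and 1 to 2 higher, and 3 to 5 fibrillar collagens lower. In these fits calls over all genes tested ran from 4340 to 6018 with shNsd2, from 2046 to 7384 with MCTP and from 3391 to 7781 in shNsd2 against MCTP.

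Without the filter, which adds genes near the floor, the median of the matrix genes was -0.23 with shNsd2 (basement membrane -0.21) and -0.046 with MCTP, and 2 were higher in the direct comparison. The fibrillar median with MCTP was then -0.0067, over 8 genes. With all 9 libraries in one fit, 1 matrix gene and 0 basement membrane genes were higher with shNsd2 (basement membrane median -0.31). Without a trend these were 1 and 0, and with MCTP 3 matrix genes and 1 fibrillar collagen were higher. Quantile normalization left 1 fibrillar collagen higher with MCTP (fibrillar median -0.074), and centring on medians left 1 lower.

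With the GC correction, 0 matrix genes, 0 basement membrane genes and 0 fibrillar collagens were higher with shNsd2 (median -0.30). With MCTP the medians were -0.15 for matrix genes, -0.19 for basement membrane genes, of which 10 were lower, and -0.15 for fibrillar collagens. In the direct comparison 4 matrix genes were higher, 3 of them basement membrane genes, the median was -0.098, and 3 fibrillar collagens were lower.

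With the length correction, the MCTP medians reversed to 0.017 for matrix genes and 0.05 for fibrillar collagens. There 9 matrix genes and 1 fibrillar collagen were lower, and 1 basement membrane gene was higher (median -0.033). The fibrillar median with shNsd2 was -0.18, and the direct medians were -0.20 for matrix genes, -0.22 for basement membrane genes and -0.21 for fibrillar collagens. The causes of these shifts were not tested.

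The replicate numbers gave no steady sign of pairing: correlations of same-numbered deviations ran from -0.805 to 0.612. Libraries with different numbers were not compared in this way, so whether the numbers pair the libraries is not known. With the replicate number as a block, 1 matrix gene and 0 basement membrane genes were higher with shNsd2. With MCTP 3 matrix genes were higher and 1 fibrillar collagen lower, and in the direct comparison 4 basement membrane genes and 3 fibrillar collagens were lower.

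Of 111 calls on single genes, 84 kept their direction and call under every alternative run (40 of 46 with shNsd2, 17 of 29 with MCTP, 27 of 36 in the direct comparison). Of 52 tests of matrix genes that did not pass, 28 passed under at least 1 alternative (4 of 8 with shNsd2, 15 of 24 with MCTP, 9 of 20 in the direct comparison). The depth of the libraries is unknown, and the log2 scale compresses changes of genes near the floor.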
